A study of Cricetiscus sungorus with 16 samples.

Results

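This account covers 42 mouse RefSeq transcript identifiers that stand for cholesterol synthesis, uptake and lipid storage. Their signals were measured in ovaries taken from female Siberian hamsters. They were chosen as enzymes of sterol synthesis, controllers of the sterol-sensing transcription factors, lipoprotein receptors, sterol transporters and fatty acid synthesis genes. The design also names lipid storage and hydrolysis genes and liver X receptors among them. The list names identifiers and applies no measured value, but it was drawn up with earlier results of these data known, and where several probes shared an identifier the brightest was used. Of the 42, 41 had a probe on the array and 37 passed the filter on dim probes, out of 20143 identifiers that passed it and 33272 on the array.

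The study compared 4 groups of 4 hamsters each. They were gestated and kept in short days (SD, 10 h of light) until 8 wk of age, in long days (LD, 16 h of light) until 8 wk, in SD until 3 wk, or in LD until 3 wk. For the SD hamsters at 8 wk the labels conflict: the title, the source name and the treatment give 16 h of light, while the description gives 10 h, as the labels of the SD hamsters at 3 wk do. The title, the source name and the description all name them SD, so 10 h was used. Each hamster's ovarian RNA went onto a single-colour mouse array of its own. The design asks whether ovaries of the 2 day lengths differ at each age and how they change between the ages in each day length.

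Cholesterol is built from acetyl units through the mevalonate pathway, in which squalene is closed to lanosterol and lanosterol is trimmed to cholesterol. When membranes run low in sterol, the SREBP transcription factors are released from their anchor and raise the transcription of these enzymes and of the LDL receptor. The ovary is known for using cholesterol as the raw material of steroid hormones: its steroid-producing cells take it up from LDL and HDL, make it themselves, or free it from cholesteryl esters stored in lipid droplets. Fatty acid synthesis supplies the acids for those esters and is under SREBP control as well. The deposited files give identifiers without gene symbols, so none of the identifiers below can be tied here to a step of the pathway or ordered by role. For the same reason no tissue marker could be looked up, and the label ovary was not checked against markers. No probe or transcript sequence was printed for them.

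Values are log2 of a probe's processed intensity relative to the 75th percentile of its array, so a difference of 1 is a 2-fold difference. They are signals of hamster RNA on mouse probes. Levels set against those of other probes below describe signal and do not tell which transcript is more abundant. All 37 probes used were well above background on all 16 arrays. Their mean levels over the arrays lay between -3.49 and 6.75, with a median of 1.29, against -0.72 for all identifiers tested. In whole ovaries, fewer cells of a type and less RNA per cell cannot be told apart. Each of the 4 slides carried 1 array of each group, always at the same place on the slide, so a place on the slide and a group cannot be told apart. An array's 75th percentile intensity was between 268.7 and 1007.5, with the lowest values on slide 1. Slide 1 also had the most outlier spots, 775 to 1278 an array, against 64 to 207 on arrays of the other slides. The levels missing for the 37 transcripts were all on slide 1.

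One array stood apart for these transcripts. The LD 8 wk array of slide 3 gave the highest LD 8 wk level for 21 of the 36 transcripts measured on all 4 arrays of that group, whereas over all identifiers it was the highest for 23.9%. The median level of the 37 transcripts was 1.62 on that array and 1.22, 1.17 and 1.0 on the LD 8 wk arrays of slides 1, 2 and 4. The SD 8 wk arrays had medians of 1.67, 1.59, 1.78 and 1.53. Differences that passed a test and rest on the LD 8 wk group are therefore also given without that array, as are the counts and medians over the transcripts. The array was picked because these transcripts read high on it. Leaving it out therefore tends to raise their SD minus LD differences at 8 wk and to lower their LD age changes. The difference between the 2 age changes tends to grow as well. The shares over all identifiers carry no such pick. Values without that array show how far results rest on 1 array and add no support.

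**Figure D1:**
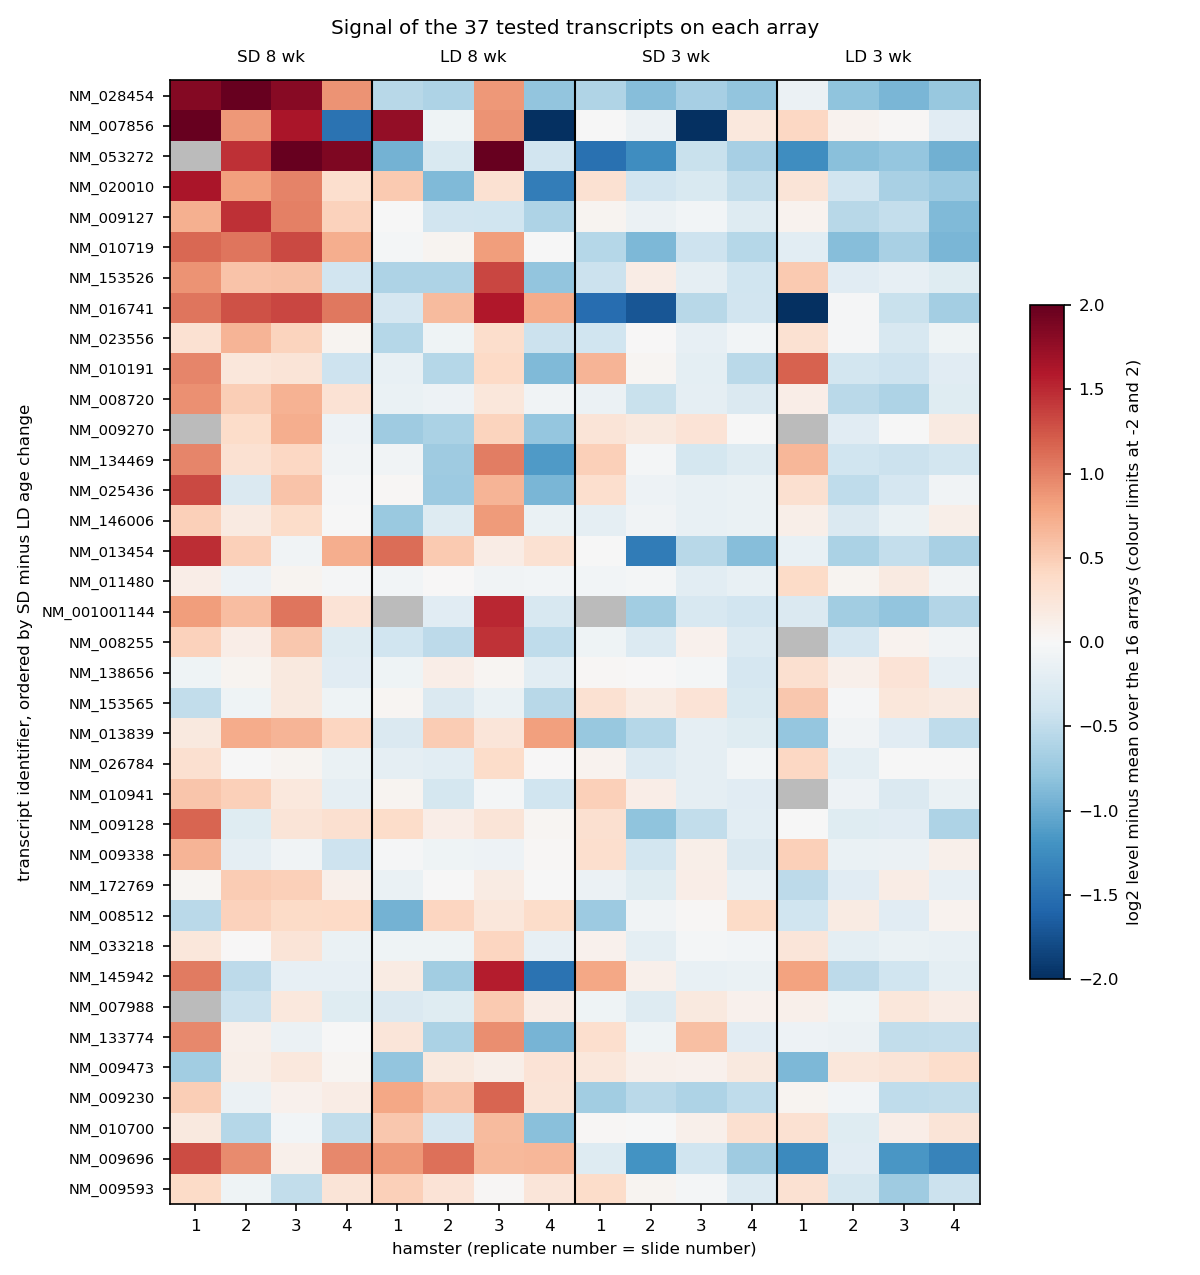
Signal of the 37 tested transcripts (rows) on each of the 16 arrays (columns, grouped as SD 8 wk, LD 8 wk, SD 3 wk and LD 3 wk, numbered by slide), as the log2 level minus the transcript's mean over the arrays, with grey for a spot left out as an outlier. The SD 8 wk columns are red for most of the upper rows, and the LD 8 wk column of slide 3 is redder than the other 3 LD 8 wk columns.

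At 8 wk, 2 of the 37 transcripts were higher in SD than in LD ovaries and none was lower (limma, adjusted p under 0.05, which 0.958% of all identifiers passed, 0.735% as higher and 0.223% as lower). They were NM_028454 and NM_009127. The transcripts as a set leaned the same way: 32 of 37 differences were positive (26 to 33 over 31 other settings), with a median of 0.28, while 48.0% of all identifiers had a positive difference and their median was -0.01. The median over the transcripts was 0.63 without the LD 8 wk array of slide 3, more than 2 times as large, with 32 of 37 positive, against -0.004 and 49.4% for all identifiers. Without the LD 8 wk array of slide 4 the median was 0.13. The fewest positive differences, 26, came without slide 1, where 41.5% of all identifiers had a positive difference. A gain without the array of slide 3 was built in, since that array was picked for high readings of these transcripts.

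NM_028454 had levels of 4.55, 4.75, 4.53 and 3.61 in SD ovaries at 8 wk, against 2.16, 2.10, 3.57 and 1.92 in LD ovaries at 8 wk. Every SD value lay above every LD value, but the LD array of slide 3 came close to the lowest SD array. The difference was 1.92 (SE 0.32, n = 4 each, 3.79-fold, limma adjusted p = 0.00547). Within slides it was 2.40, 2.66, 0.96 and 1.68. Without the LD array of slide 3 it was 2.30 (SE 0.25, limma adjusted p = 0.000212).

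NM_009127 had levels of -2.18, -1.43, -1.88 and -2.42 in SD ovaries at 8 wk and of -2.89, -3.28, -3.29 and -3.50 in LD ovaries at 8 wk. The groups did not overlap, and here the LD array of slide 3 sat among the others. This probe was among the dimmer ones: its mean level over the arrays was -2.89, and the lower quartile of all identifiers tested was -2.83. The difference was 1.26 (SE 0.23, n = 4 each, 2.39-fold, limma adjusted p = 0.0102), and it was positive on each slide, between 0.71 and 1.84. Without the LD array of slide 3 it was 1.24 (SE 0.26, limma adjusted p = 0.0273). In all, the SD arrays lay above the LD arrays without overlap for 3 of the 37 transcripts, these and NM_008720 (2.18% of all identifiers did so). Without the LD array of slide 3, which leaves 3 arrays to clear, they did so for 14 of the 37 (4.08% of all identifiers).

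With slide as a block, 5 transcripts were called, all higher in SD (2.62% of all identifiers called, 1.82% as higher). The added ones were NM_020010, which averaged 2.26 ± 0.54 in SD and 0.95 ± 0.92 in LD ovaries (standard deviation, n = 4 each), NM_010719 with 1.01 ± 0.25 and 0.16 ± 0.42, and NM_008720 with 1.88 ± 0.27 and 1.27 ± 0.17. Their differences were 1.31, 0.85 and 0.62, with limma adjusted p of 0.00553, 0.0154 and 0.0472 in the blocked fit and of 0.175, 0.0809 and 0.158 without it. In the blocked fit without the LD array of slide 3 their differences were 1.56, 1.01 and 0.71 (limma adjusted p = 0.000643, 0.00555 and 0.0336). The call for NM_010719 rests on the brighter of its probes, and its second probe gave 0.16 (SE 0.14) at 8 wk without the block.

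The slides did not agree on the size or the direction of the shift. The median SD minus LD difference over the transcripts was 0.70 on slide 1, 0.44 on slide 2, -0.10 on slide 3 and 0.34 on slide 4. Over all identifiers the medians were 0.08, -0.03, -0.02 and -0.06 on slides 1 to 4. On slide 3, 18 of 37 differences were positive, against 46.7% of all identifiers. With the LD 8 wk array of slide 3 left out, the fit without the block called 5 transcripts higher in SD (1.12% of all identifiers called): the 2 above, NM_010719, NM_009270 and NM_053272. The difference was 1.07 for NM_010719 (limma adjusted p = 0.0105), 1.04 for NM_009270 (0.0268) and 2.41 for NM_053272 (0.000575), against 0.85, 0.75 and 1.34 with that array. With the block and without that array it called 15 (2.71% of all identifiers).

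Neither call held under every setting. Fitting only the 2 groups compared gave adjusted p of 0.089 for NM_028454 and 0.0814 for NM_009127. Without slide 1 the value for NM_028454 was 0.0552, and another background correction moved NM_009127 to a difference of 0.93 with an adjusted p of 0.756.

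**Figure D2:**
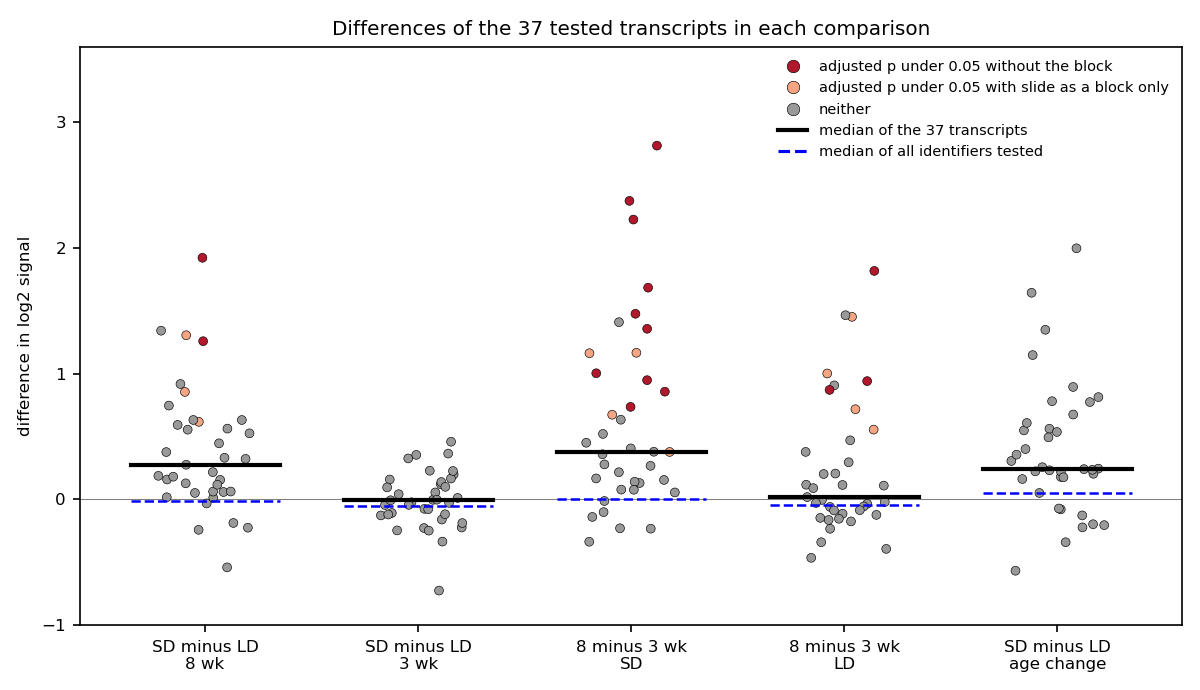
Difference in log2 signal for each of the 37 tested transcripts (points) in the 5 comparisons, coloured by whether limma called it without the slide block or only with it, and with the median of the 37 (black) and of all identifiers tested (blue, dashed). The black line lies above the blue by most in the SD minus LD comparison at 8 wk and in the 8 minus 3 wk comparison in SD, at 0.28 and 0.38.

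Between 3 and 8 wk in SD, 10 of the 37 transcripts rose and none fell (limma, 9.15% of all identifiers called, 4.77% as higher and 4.38% as lower). Their rises ran from 0.74 to 2.82. Of all 37, 31 had a positive change (28 to 34 over the other settings) with a median of 0.38, against 50.1% and 0.00 for all identifiers. For 13 transcripts every SD 8 wk array lay above every SD 3 wk array, which held for 8.12% of all identifiers. For none did every SD 8 wk array lie below, which held for 7.83% of all identifiers.

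NM_053272 had levels of 3.69, 4.46 and 4.10 in SD ovaries at 8 wk, with the spot of slide 1 left out as an outlier, and of 0.73, 0.99, 1.79 and 1.57 in SD ovaries at 3 wk. It rose by 2.82 (SE 0.77, n = 3 and 4, 7.04-fold, limma adjusted p = 0.0322). The 3 slides with both ages gave 2.70, 2.67 and 2.53. The fit shares its estimate of the spread among the groups, and in LD ovaries at 8 wk the array of slide 3 read 5.93 and the others 1.28, 1.92 and 1.84. Without that array the SD rise was 2.82 (SE 0.27) with an adjusted p of 3.47e-05, and over the 31 settings the adjusted p ran from 4.67e-06 to 0.107.

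NM_028454 had, beside the SD 8 wk values above, 2.10, 1.86, 2.05 and 1.92 in SD ovaries at 3 wk. The SD 3 wk arrays lay close together and far below the SD 8 wk arrays. It rose by 2.38 (SE 0.32, n = 4 each, 5.19-fold, limma adjusted p = 0.00025), between 1.68 and 2.89 within slides.

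NM_016741 had 6.36, 6.55, 6.62 and 6.33 in SD ovaries at 8 wk and 3.75, 3.57, 4.73 and 4.90 in SD ovaries at 3 wk. The older group was tight and the younger spread over more than 1 log2 unit. It rose by 2.23 (SE 0.43, n = 4 each, 4.68-fold, limma adjusted p = 0.00373).

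NM_010719 had 1.09, 1.02, 1.27 and 0.68 in SD ovaries at 8 wk and -0.63, -0.96, -0.47 and -0.63 in SD ovaries at 3 wk. All older arrays were above the 75th percentile of their array and all younger ones below it. It rose by 1.68 (SE 0.21, n = 4 each, 3.21-fold), with the lowest limma adjusted p of the 37, 0.000152. A second probe of this transcript gave a smaller change, 0.52 (SE 0.14), in SD and also in LD, at 0.34 (SE 0.14) against 0.87 for the probe used.

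NM_009696 had 6.76, 6.39, 5.55 and 6.40 in SD ovaries at 8 wk and 5.18, 4.24, 5.04 and 4.73 in SD ovaries at 3 wk. The array of slide 3 was the lowest of the older group and gave the smallest difference, 0.51, while the other slides gave 1.57 to 2.15. It rose by 1.48 (SE 0.28, n = 4 each, 2.78-fold, limma adjusted p = 0.00367).

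NM_013454 had 7.06, 6.07, 5.52 and 6.31 in SD ovaries at 8 wk and 5.58, 4.19, 5.02 and 4.74 in SD ovaries at 3 wk. Of the 10 that rose it was the one whose groups overlapped, since the lowest older array was just under the highest younger one. It rose by 1.36 (SE 0.32, n = 4 each, 2.56-fold, limma adjusted p = 0.0131), and every slide gave a positive difference, the smallest 0.50.

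The other 4 rose less. NM_009127 had the SD 8 wk levels given above and -2.84, -3.00, -2.95 and -3.14 in SD ovaries at 3 wk, a rise of 1.0 (SE 0.23, n = 4 each, limma adjusted p = 0.0111). NM_013839 had -0.52, 0.02, -0.05 and -0.29 in SD ovaries at 8 wk and -1.47, -1.30, -0.90 and -0.97 in SD ovaries at 3 wk, a rise of 0.95 (SE 0.23, n = 4 each, limma adjusted p = 0.0151). Neither pair of groups overlapped.

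NM_008720 had 2.20, 1.79, 1.98 and 1.57 in SD ovaries at 8 wk and 1.17, 0.84, 1.1 and 0.99 in SD ovaries at 3 wk, a rise of 0.86 (SE 0.18, n = 4 each, limma adjusted p = 0.00578). NM_009230 had 2.19, 1.59, 1.78 and 1.84 in SD ovaries at 8 wk and 1.01, 1.17, 1.09 and 1.19 in SD ovaries at 3 wk, a rise of 0.74 (SE 0.19, n = 4 each, limma adjusted p = 0.0241). Again all older arrays lay above all younger ones.

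**Figure D3:**
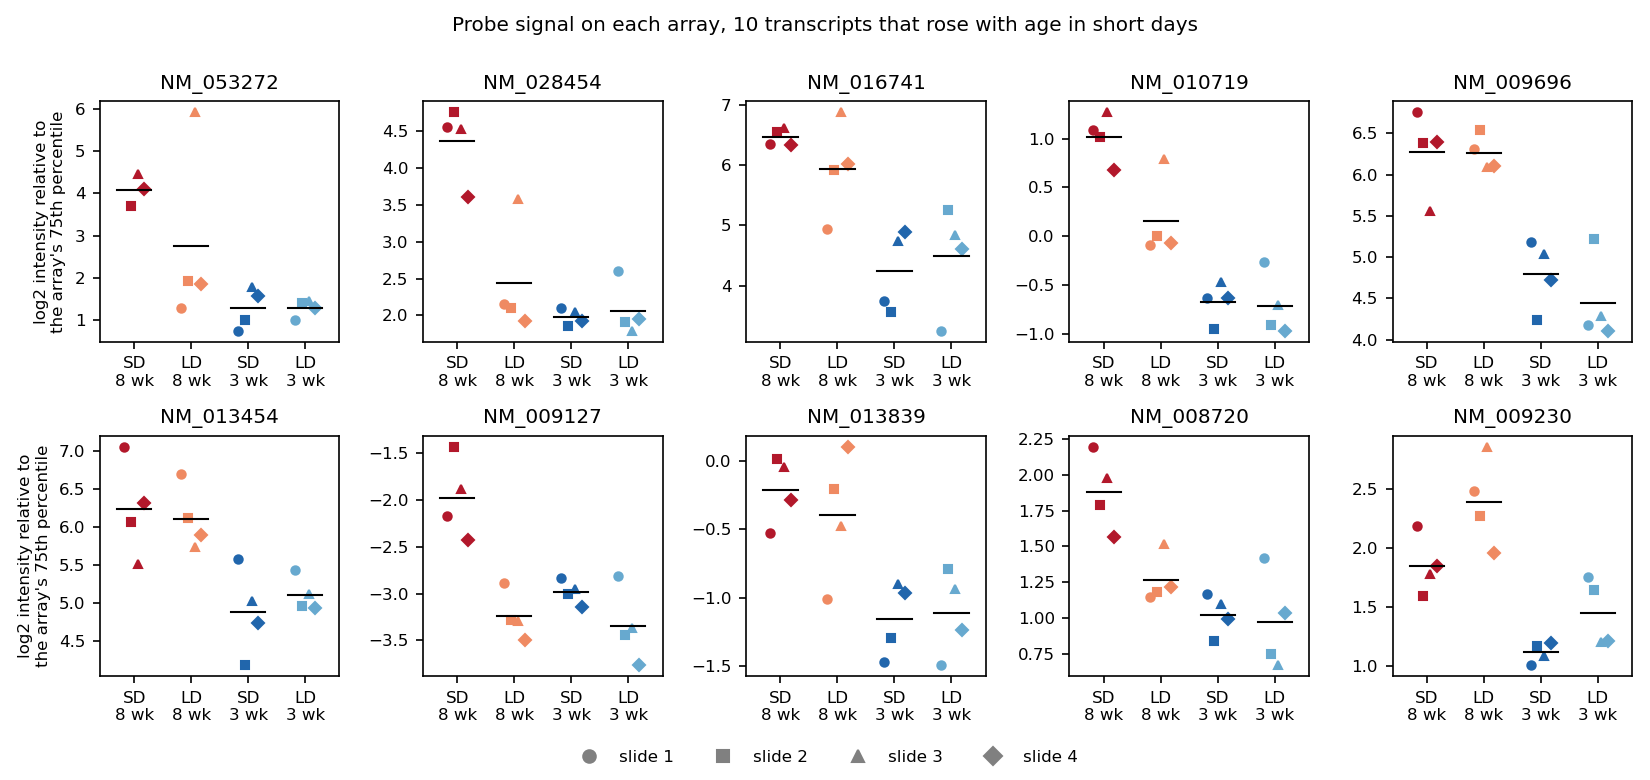
Log2 level relative to the array's 75th percentile on each array (points, shaped by slide) for the 10 transcripts that rose with age in short days, with group means as bars, for SD 8 wk, LD 8 wk, SD 3 wk and LD 3 wk. The SD 8 wk points clear the SD 3 wk points in 9 of the 10 panels. The LD 8 wk triangle (slide 3) sits above all SD 8 wk points for NM_053272, NM_016741 and NM_009230. It sits far below them only for NM_009127. In the other panels it sits within their range or just under the lowest.

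With slide as a block, 14 transcripts rose with age in SD (23.1% of all identifiers called, 10.9% as higher), the 10 above and NM_020010, NM_001001144, NM_009128 and NM_172769. NM_020010 averaged 2.26 ± 0.54 in SD ovaries at 8 wk and 1.09 ± 0.36 at 3 wk (standard deviation, n = 4 each), and NM_001001144 averaged 4.13 ± 0.34 (n = 4) and 2.97 ± 0.20 (n = 3). Their changes in that fit were 1.17 and 1.09, with limma adjusted p of 0.00197 and 0.0271. NM_009128 averaged 7.12 ± 0.58 at 8 wk and 6.45 ± 0.48 at 3 wk in SD ovaries, and NM_172769 -2.78 ± 0.24 and -3.16 ± 0.16 (standard deviation, n = 4 each), with changes of 0.67 and 0.38. Without the LD 8 wk array of slide 3 and without the block, 11 transcripts rose in SD (9.12% of all identifiers called).

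The call for NM_053272 was lost (adjusted p between 0.0516 and 0.107) without slide 1 or without any 1 of the SD arrays except those of slide 3 at 3 wk and slide 1 at 8 wk, and the call for NM_009230 (0.0511 to 0.0848) without slide 1, with the mean of its probes, or without the SD 8 wk array of slide 1 or 4 or the SD 3 wk array of slide 1, 2 or 3. Other calls were lost in fewer settings: NM_013839 (0.0501 to 0.0554) without the SD 8 wk array of slide 2 or the SD 3 wk array of slide 1 or 2, NM_013454 (0.0539) without the SD 3 wk array of slide 2, and NM_009127 (0.551) with another background correction.

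Between 3 and 8 wk in LD, 3 of the 37 transcripts rose and none fell (limma, 2.98% of all identifiers called, 1.21% as higher and 1.78% as lower). All 3 had also risen in SD. Here the set as a whole was split: 19 of 37 changes were positive (14 to 27 over the other settings) with a median of 0.02, against 43.2% and -0.04 for all identifiers. Without the LD 8 wk array of slide 3, 14 were positive with a median of -0.11, against 42.5% and -0.05. For 5 transcripts every LD 8 wk array lay above every LD 3 wk array (3.44% of all identifiers), and for 5 also without that array (4.51%). With all arrays, for none did every LD 8 wk array lie below (5.27% of all identifiers).

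NM_009696 had 6.32, 6.54, 6.09 and 6.10 in LD ovaries at 8 wk and 4.17, 5.22, 4.28 and 4.10 in LD ovaries at 3 wk. The groups stood well apart, although the LD 3 wk array of slide 2 was above the rest of its group. It rose by 1.82 (SE 0.28, n = 4 each, 3.53-fold, limma adjusted p = 0.0043), within slides by 1.32 to 2.14. The rise was 1.88 (adjusted p = 0.00968) without the LD 8 wk array of slide 3.

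NM_009230 had 2.48, 2.27, 2.86 and 1.96 in LD ovaries at 8 wk and 1.75, 1.64, 1.2 and 1.21 in LD ovaries at 3 wk. It rose by 0.94 (SE 0.19, n = 4 each, 1.92-fold, limma adjusted p = 0.0148). Its rise without the LD 8 wk array of slide 3 was 0.78 (SE 0.19), just inside the threshold (adjusted p = 0.0498). Its difference at 8 wk was opposite in sign to that of most of the set, at -0.54 (SE 0.19, n = 4 each), and did not pass the test (limma adjusted p = 0.372, and -0.38 with 0.683 without that array). A second probe gave 0.61 (SE 0.19) for the LD change.

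NM_010719 had -0.09, -0.001, 0.79 and -0.07 in LD ovaries at 8 wk and -0.26, -0.91, -0.71 and -0.97 in LD ovaries at 3 wk. The array of slide 3 was far above the other 3 of the older group. It rose by 0.87 (SE 0.21, n = 4 each, 1.83-fold, limma adjusted p = 0.0355). Without that array its change was 0.66 with an adjusted p of 0.103, and 2 transcripts were called (1.60% of all identifiers). Its call was also lost without any other single array of LD ovaries except those of slide 1, and that of NM_009230 without the LD 3 wk array of slide 4 (adjusted p = 0.0618). Fitting only the 2 groups compared lost both, with limma adjusted p of 0.147 for NM_010719 and 0.0892 for NM_009230. The call for NM_010719 was lost too with another background correction (0.101) and with no filter on dim probes (0.0509).

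In the fit blocked by slide, 7 transcripts rose with age in LD (11.9% of all identifiers called, 3.93% as higher). The added ones were NM_016741, which averaged 5.94 ± 0.79 in LD ovaries at 8 wk and 4.49 ± 0.87 at 3 wk, NM_013454 with 6.11 ± 0.42 and 5.11 ± 0.23, NM_013839 with -0.40 ± 0.48 and -1.11 ± 0.31, and NM_009593 with 1.53 ± 0.19 and 0.98 ± 0.43 (standard deviation, n = 4 each). Of these 4, all but NM_009593 had risen in SD without the block, and its SD change was -0.01. In the blocked fit without the LD 8 wk array of slide 3, NM_016741, NM_013454 and NM_013839 still passed, with changes of 1.25, 1.06 and 0.81 (limma adjusted p = 0.0427, 0.0154 and 0.0153), while NM_009593 had 0.52 (0.0647). The median LD change over the transcripts was 0.73 on slide 3 and -0.27, 0.04 and -0.02 on slides 1, 2 and 4. Over all identifiers it was -0.05 on slide 3 and -0.21, 0.02 and 0.01 on slides 1, 2 and 4.

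**Figure D4:**
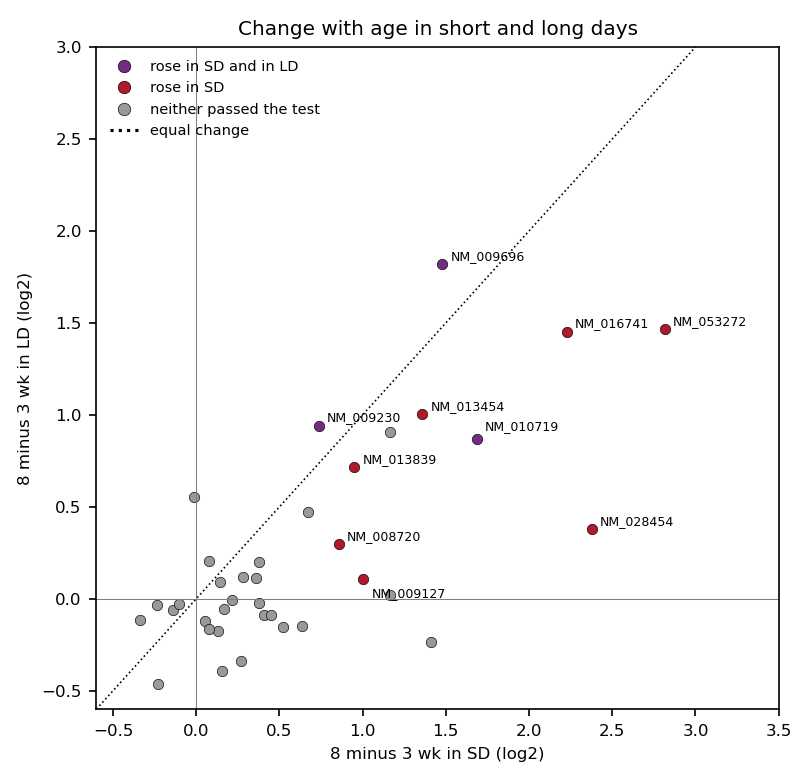
Change between 3 and 8 wk in log2 signal in SD (horizontal) and in LD (vertical) for the 37 tested transcripts, with the line of equal change dotted and the 10 that rose in SD labelled. Most points lie below the line: 29 of 37 changes were larger in SD than in LD, and NM_028454 lies furthest below it among the labelled ones.

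The difference between the 2 age changes was itself tested. None of the 37 transcripts passed (limma, 0.0596% of all identifiers called), although 29 had a larger change in SD than in LD, with a median difference of 0.24 against 57.5% and 0.05 for all identifiers (32, 0.35, 56.3% and 0.05 without the LD 8 wk array of slide 3). An unadjusted p under 0.05 was reached by 5 of the 37 and by 3.05% of all identifiers. With slide as a block also none passed (0.174% of all identifiers), and 8 of the 37 had an unadjusted p under 0.05 (8.5%). The calls in SD that had none in LD are thus not shown to be larger in SD.

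The 2 largest differences were those of NM_028454 and NM_007856. NM_028454 had an SD change of 2.38 and an LD change of 0.38, a difference of 2.0 (SE 0.45, 95% interval 1.04 to 2.96, limma adjusted p = 0.204, and 0.0918 with the block). NM_007856 had a difference of 1.64 with an interval of -1.16 to 4.45 (2.0 with an adjusted p of 1 without the LD 8 wk array of slide 3). Without the LD 8 wk array of slide 3, 2 transcripts passed (0.149% of all identifiers): NM_028454 with a difference of 2.38 (SE 0.34, adjusted p = 0.00777) and NM_053272 with 2.41 (SE 0.38, adjusted p = 0.0187). With the block and without that array 4 passed (0.293% of all identifiers), these and NM_020010 and NM_134469. Without the SD 8 wk array of slide 4, NM_028454 alone of the 37 passed (adjusted p = 0.0446, 0.243% of all identifiers called). Over the 31 settings its adjusted p ran from 0.00437 to 0.771.

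At 3 wk no transcript passed the test between SD and LD (limma, 0 of 37 and 0% of all identifiers, with or without the block). An unadjusted p under 0.05 was reached by none without the block (1.64% of all identifiers) and by 3 with it (6.44%). The differences had a median of -0.01, with 16 of 37 positive, against -0.05 and 37.4% for all identifiers. The 95% interval of the difference stayed within a 2-fold change in either direction for 31 of the 37 transcripts.

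The 2 largest differences at 3 wk belonged to NM_007856 and NM_133774. NM_007856 had -0.37, -0.47, -3.09 and -0.15 in SD ovaries at 3 wk and 0.05, -0.29, -0.34 and -0.60 in LD ovaries at 3 wk, a difference of -0.73 (SE 0.93). Without the SD array of slide 3, which read far below the other 3, it was -0.04. NM_133774 had a difference of 0.46 (SE 0.35). NM_009230 was the transcript whose SD arrays all lay below the LD arrays at this age (1.33% of all identifiers did so), with a difference of -0.34 (SE 0.19). The margin was narrow, since its highest SD array read 1.1943 and its lowest LD array 1.1998.

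Across the 4 groups, SD ovaries at 8 wk had the highest mean for 27 of the 37 transcripts, against 27.3% of all identifiers. SD ovaries at 3 wk had the lowest mean for 16 of them (30.7% of all identifiers), LD ovaries at 3 wk for 10 (16.6%), LD ovaries at 8 wk for 8 (20.1%) and SD ovaries at 8 wk for 3 (32.6%). Without the LD 8 wk array of slide 3, SD ovaries at 8 wk had the highest mean for 26 (27.2%), and the lowest mean lay in LD ovaries at 8 wk for 16 (24.9%) and in SD ovaries at 3 wk for 12 (27.2%). For the 31 transcripts measured on all 16 arrays, differences between groups made up 46.9% of the summed squares around the transcript means and differences between slides 25.3%, whereas over all such identifiers the shares were 32.0% and 43.7%. Without that array they were 54.2% and 26.4% for the transcripts and 33.7% and 44.2% over all such identifiers.

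The transcripts also varied together among hamsters of a group. With group and slide means removed, the mean correlation between pairs of the 31 transcripts measured on all 16 arrays was 0.185, against 0.0427 over pairs of all such identifiers. Without the LD 8 wk array of slide 3 these means were 0.0912 and 0.0455. The arrays share slides and the transcripts share arrays, so these are descriptions with no test.

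The pattern of NM_028454 over the 16 arrays, with slide means removed, was followed most closely by identifiers outside the set, NM_019807 (r = 0.990) and NM_007813 (r = 0.989), whose SD age changes were 4.65 and 4.70. Within the set NM_008720 came nearest (r = 0.956), followed by NM_010719 (r = 0.933) and NM_020010 (r = 0.919). The correlation was over 0.5 for 18 of the other 30 transcripts measured on all arrays and for 18.1% of all identifiers, as a description over arrays that share groups. It was over 0.5 for 18 of them also without the LD 8 wk array of slide 3 (18.2% of all identifiers).

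Further probes past the filter existed for 11 of the transcripts, 12 probes in all. These agreed in sign with the probe used for 11 of 12 in the SD minus LD comparison at 8 wk, for 10 of 12 in the SD age change and for 8 of 12 in the LD age change. The second probe of NM_053272 gave an SD age change of 4.28 (SE 0.97), and that of NM_020010 gave 1.19 (SE 0.35). That of NM_009230 gave 0.30 (SE 0.19) in SD, less than the 0.74 of the probe used.

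Of the 41 transcripts on the array, 4 were not tested. NM_007898, NM_023409 and NM_021460 were above background on 11 of 16 arrays each. NM_013703 was above background on all 16, but its 4 spots on slide 1 were outliers. On slides 2, 3 and 4 it had 5.12, 5.24 and 5.55 in SD ovaries at 8 wk, 5.84, 5.75 and 5.64 in LD ovaries at 8 wk, 5.23, 5.32 and 5.33 in SD ovaries at 3 wk and 5.45, 5.30 and 5.35 in LD ovaries at 3 wk. It thus stood lower in SD than in LD ovaries at 8 wk on each of the 3 slides. NM_145360 had no probe in the files used here and was not analysed.

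The remaining 22 tested transcripts passed no test with or without the slide block over the 16 arrays. Every call in those fits was a positive difference, so setting the called transcripts aside lowers the counts of positives here. Their SD minus LD differences at 8 wk lay between -0.23 (NM_010700) and 0.92 (NM_007856), 19 of them positive (48.0% of all identifiers). Their age changes in SD lay between -0.34 and 1.41, with 17 positive (50.1% of all identifiers). In LD they lay between -0.47 (NM_153565) and 0.21 (NM_133774), with 4 positive (43.2%). Without the LD 8 wk array of slide 3, the 8 wk differences lay between -0.02 and 1.27, with 20 positive (49.4% of all identifiers). The LD age changes then lay between -0.68 and 0.05, 1 of them positive (42.5%). In that fit without the block, NM_009270 was the only one of the 22 to pass a test.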

How the data were processed

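Total RNA of both ovaries of each hamster was labelled with Cy3, per the labels' protocols. The authors' deposited scanner files hold, per the file headers, processed spot intensity on a linear scale from Agilent Feature Extraction 10.5.1.1, corrected for background within an array and not normalized between arrays. The authors' deposited files also carry flags, which were used to drop outlier spots and to tell signal from background. A value table deposited by the authors gives that intensity too, matching to within 0.5% in all but 4 cells, and served as an alternative.

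Here outlier spots were left out, spots of a probe averaged, and log2 taken after scaling to the array's 75th percentile. Probes had to be well above background on every array of some group, and measured on 12 or more of the 16 arrays and 2 or more per group and per slide. Where several probes shared an identifier the brightest was used. The fit, by limma 3.58.1 under R 4.3.3 (lmFit, eBayes with trend), covered all 16 arrays, with Benjamini-Hochberg adjustment over 20143 identifiers and a threshold of 0.05. The scripts were tested on simulated data.

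Samples were grouped by their descriptions. The labels give a code per animal and no replicate numbers, so arrays are numbered by slide and each was counted as a separate hamster. Same-slide arrays deviated from their group means together (median correlation 0.451, lowest 0.224). Slide as a block is an alternative. Others were the normalization, the background correction, the filter, the use of probes, outlier spots, the trend, array weights, the groups fitted and leaving out slide 1 or each array.

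The members and lists were chosen with earlier results of these data known. Named with values on every array were members past the threshold without the block, members past it only with the block were given by group means, and where none passed the 2 largest differences were given. Lists of steroidogenic genes, other lipid genes and cell type markers could not be matched, since the files used here hold no gene symbols, and no list was tested. The number of arrays limits the precision.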

Additional observations from a re-analysis of the deposited data

Results flagged for a closer look

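In 19 of 144 sets of 4 arrays (13.2%), the sets of the median level included, 1 array lay far from the other 3, by Dixon's ratio of the gap to the whole range at its 95% critical value. Chance gives about 1 in 20 such sets, and over all identifiers 8.33% of sets passed. The sets passed in 9 of 37 cases in LD ovaries at 8 wk, 1 of 35 in SD ovaries at 8 wk, 3 of 37 in SD ovaries at 3 wk and 6 of 35 in LD ovaries at 3 wk.

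The LD 8 wk array of slide 3 was the high one for 7 transcripts: NM_008255 (ratio 0.937), NM_153526 (0.917), NM_010719 (0.903), NM_009270 (0.879), NM_033218 (0.870), NM_053272 (0.861) and NM_028454 (0.860). NM_008255 read 4.24 there and at most 2.39 on the other 3, and NM_153526 read 3.12 and at most 1.17. These 7 were picked because that array was their high one. Leaving it out could thus only raise their SD minus LD differences at 8 wk and lower their LD age changes. With that array left out, the SD minus LD difference at 8 wk was 0.70 for NM_008255, against 0.22 with it, 1.1 for NM_153526 (0.59), 1.07 for NM_010719 (0.85), 1.04 for NM_009270 (0.75), 0.20 for NM_033218 (0.06), 2.41 for NM_053272 (1.34) and 2.30 for NM_028454 (1.92). The LD age change was -0.37 for NM_008255, against 0.11 with it, -0.65 for NM_153526 (-0.15), 0.66 for NM_010719 (0.87), -0.68 for NM_009270 (-0.39), -0.05 for NM_033218 (0.09), 0.40 for NM_053272 (1.47) and -0.001 for NM_028454 (0.38).

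The LD 3 wk array of slide 1 was high for NM_134469 (0.944), NM_153526 (0.887), NM_010191 (0.886) and NM_033218 (0.860) and low for NM_009473 (0.896). The LD 3 wk array of slide 2 was high for NM_009696 (0.840). The LD 8 wk array of slide 1 was low for NM_009473 (0.858) and NM_008512 (0.857), and the SD 8 wk array of slide 1 was low for NM_008512 (0.935).

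Among SD ovaries at 3 wk, the array of slide 1 was high for NM_025436 (0.898), that of slide 3 was low for NM_007856 (0.889) and that of slide 4 was low for NM_138656 (0.836).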

How the results depend on the processing

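In up to 31 alternative settings, no transcript that passed a test with or without the slide block changed direction in that comparison. The median over the transcripts crossed 0 for the LD age change (-0.14 to 0.21) and for SD against LD at 3 wk (-0.04 to 0.07). Of the 2 alternatives chosen after seeing the data, the first took the 75th percentile over all spots. The other, slide as a block with the LD 8 wk array of slide 3 left out, called 15 transcripts for SD against LD at 8 wk (2.71% of all identifiers called), 17 for the SD age change (22.5%), 8 for the LD age change (7.69%; 6 higher, and NM_134469 and NM_145942 lower) and 4 for the difference of the age changes (0.293%). Slide as a block alone called 5 for SD against LD at 8 wk (2.62%) and 7 for the LD age change (11.9%). For SD against LD at 8 wk, normexp on median signals (used since the files give no mean signal) called 1 (0.7%), leaving out slide 1 called 1 (0.998%), and fitting only the groups compared called 0 in limma (0.407%), with 8 of 37 at an unadjusted p under 0.05 (5.98%). For the LD age change, array weights called 7 (7.44%), leaving out slide 1 called 7 (6.19%), and fitting only the groups compared called 1 (1.09%). The causes were not tested.

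Leaving out 1 array at a time gave 2 to 5 calls for SD against LD at 8 wk (5 without the LD array of slide 3, 1.12% of all identifiers), 6 to 12 for the SD age change (6 without the SD 3 wk array of slide 2, 5.65%, and 12 without the LD 8 wk array of slide 4, 8.75%) and 1 to 5 for the LD age change (1 without the LD 3 wk array of slide 4, 1.15%, and 5 without the LD 8 wk array of slide 1, 3.39%). It gave 0 to 2 for the difference of the age changes (2 without the LD 8 wk array of slide 3, 0.149%), and 0 for SD against LD at 3 wk. Without the block, the median of the SD minus LD differences at 8 wk ran from 0.13 without the LD array of slide 4 to 0.63 without the LD array of slide 3.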

Other observations

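NM_007856 varied more among hamsters of a group than most of the transcripts, and its 2 probes gave differences close to each other at 8 wk and for the SD age change, but not at 3 wk or for the LD age change. The probe used read 1.63, 0.51, 1.27 and -1.84 in SD ovaries at 8 wk and 1.39, -0.45, 0.54 and -3.59 in LD ovaries at 8 wk. It gave an SD minus LD difference of 0.92 (SE 0.93) at 8 wk and an SD age change of 1.41 (SE 0.93). The dimmer probe gave 0.89 (SE 0.22) and 1.34 (SE 0.22). For the LD age change the probe used gave -0.23 and the dimmer one 0.21 (SE 0.22), opposite in sign, and for SD against LD at 3 wk they gave -0.73 and -0.24. The dimmer probe was not in the tests, so it has no adjusted p.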
